A study of Homo sapiens with 6 samples.

Results

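The 35 genes described here code for the machinery that builds the mitotic spindle, condenses and separates chromosomes and divides the cell: spindle and spindle pole proteins, the condensin complexes, topoisomerase II alpha and Ki-67, separase and securin, and the proteins of the central spindle and the cleavage furrow. They were taken by name, and all 35 were matched by symbol in GENCODE 29 to a row of the deposited table, out of 58051 gene rows; all 35 also passed the filter on low counts, among 14773 genes that did. Most kinesins and kinases of mitosis were left out by the rule, but KIFC1 is a kinesin and CIT a kinase, and both were kept because the list names them. RNA was sequenced from OE33 cells, a long-established epithelial line from a human oesophageal adenocarcinoma. The 3 treated cultures, like the controls described as independent replicates, received APX2009 at 15 µM for 24 h, and the 3 control cultures were untreated, with no vehicle named. APX2009 blocks the redox function of APE1, a DNA repair enzyme that also reduces transcription factors, and the comparison asks which transcripts differ after exposure to it. Both groups are of 1 parental line, which limits them as a model of the tumour, and no sample used here lacks APE1 or holds an inactive analogue.

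In mitosis, microtubules are nucleated at spindle poles and around chromosomes, where the small GTPase Ran releases factors such as TPX2 from importins. Condensins and topoisomerase II fold and untangle the chromosomes, the anaphase-promoting complex (APC/C) with its ubiquitin-conjugating enzymes marks securin for destruction, separase then cleaves cohesin, and the central spindle sets the plane in which the cell divides. Many of these genes are transcribed mainly in G2 and mitosis, under the FOXM1 and B-MYB factors and the DREAM and MuvB complexes, so their mRNA is also used as a measure of proliferation in tumours.

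The libraries held 21158750 to 26111656 gene counts, of which 24966 to 58536 fell in the 35 genes, and no member had fewer than 136 counts in any library. Levels are given as CPM, a gene's counts over the library's total gene counts, brought to a common total after TMM scaling of the libraries. APX2009 replicate 1 stood apart from the other libraries: counts of the added ERCC spike-in RNAs made up 0.315% of its counts, against 0.480% to 0.752% in the others, and 25015 genes had a count, against 21845 to 22446. All 10 epithelial marker genes were tested, with EPCAM at 447 and 446 CPM. Their summed level was 29189 to 29952 CPM in untreated and 16871 to 20777 CPM in treated libraries. Of the 10, 5 fell, among them KRT19 and KRT8, where 17.4% of all tested genes did. Of the fibroblast, leukocyte and endothelial markers, 1 of 10, 3 of 10 and 0 of 8 passed the filter, with summed levels of 8.43 to 12.7, 6.81 to 6.99 and 0.0445 to 0.442 CPM in untreated and 9.16 to 19.5, 7.04 to 8.13 and 0.0889 to 2.47 CPM in treated libraries. COL1A1, CD14 and CD68 were the ones with a mean above 1 CPM, of which CD68 rose (from 1.39 to 3.17 CPM, edgeR adjusted p = 0.00513), and THY1, DPT, CD3D, CD3E and NKG7 had no count in any library. The part of these marker levels in the results below was not tested.

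All 35 genes fell after APX2009 (edgeR quasi-likelihood test, Benjamini-Hochberg adjusted p under 0.05 over all genes tested), where 17.4% of all tested genes did. In each of the 35 the lowest untreated value lay above the highest treated value, which held for 25% of all genes in this direction. The median log2 change was -0.90, a 1.86-fold decrease, beside 0.02 for all genes tested, and single genes ranged from -1.46 for RACGAP1 to -0.21 for NCAPG2. At least a 2-fold decrease was reached by 14 of the 35, against 1.78% of all genes. A stricter edgeR test against a 1.5-fold change called 19 of the 35, against 1.73% of all genes. The 7 genes with under a 1.5-fold fall were CKAP5, KPNA2, NDE1, ECT2, NCAPG2, SMC4 and UBE2S. With libraries scaled by the ERCC spike-ins none of the 35 passed the edgeR test, against 0.0474% of all genes lower. With that scaling and without APX2009 replicate 1 all 35 passed, but so did 61.6% of all genes in this direction. None of the 35 was higher with edgeR, DESeq2 or limma voom, nor at an unadjusted p under 0.05. Since each library is bulk RNA, fewer cells in G2 and mitosis and less of these mRNAs per cell cannot be told apart.

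**Figure D1:**
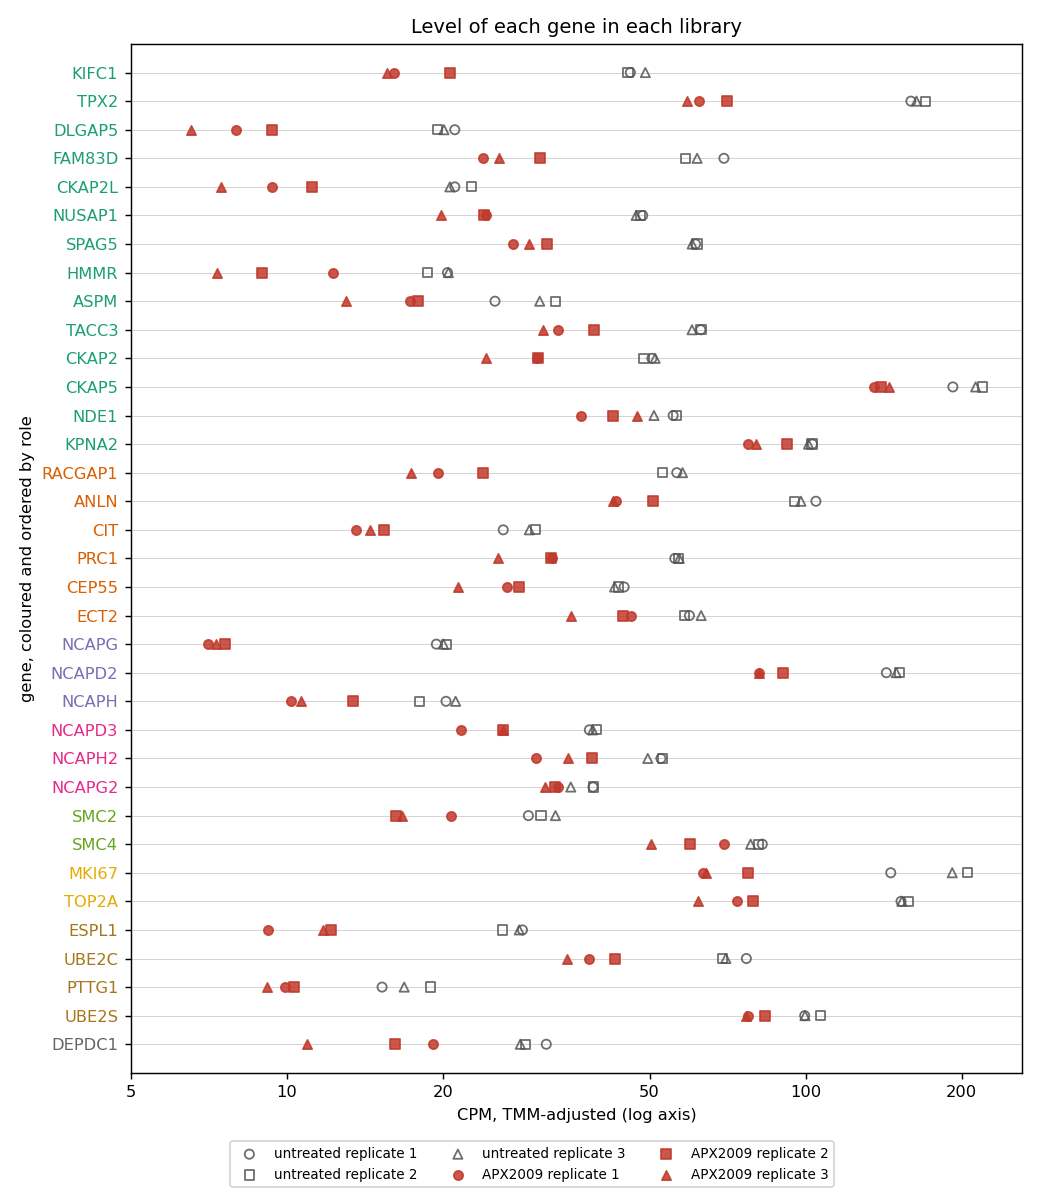
CPM (log axis) of each of the 35 genes in each of the 6 libraries, with untreated libraries as open grey symbols, treated libraries as filled red symbols, and gene names coloured and ordered by role. In each row the 3 filled symbols lie to the left of the 3 open ones, with the narrowest gap in NCAPG2.

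The treated libraries differed among themselves more than the untreated ones. Across the 35 genes the median coefficient of variation was 4.23% over untreated and 12.4% over treated libraries, against 6.03% and 10.1% for all genes tested. APX2009 replicate 3 had the lowest treated value in 21 of the 35 genes, replicate 1 in 13 and replicate 2 in 1, and replicate 2 had the highest in 24. As log2 differences from the untreated mean, the median over the 35 genes was -0.87, -0.81 and -1.06 in APX2009 replicates 1, 2 and 3, and -0.01 to 0.01 in the untreated libraries. Without APX2009 replicate 1, the library that stood apart, all 35 were still called under TMM scaling, where 19.1% of all genes were lower, and the median log2 change was -0.94.

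What these changes are relative to depends on the scaling. TMM sets the libraries on their bulk of genes, so a change of the total RNA per cell would not be seen. When libraries were scaled by the ERCC total, the 35 genes had a median of -0.08 in APX2009 replicate 1 and of -1.31 and -1.54 in replicates 2 and 3, as log2 differences from the untreated mean. The median of all genes tested was then 0.79, -0.49 and -0.48 in the same libraries, so the median of the 35 genes lay below that of all genes in each. With this scaling none of the 35 was called by edgeR, beside 7 genes lower and 129 higher of 14773, or 0.0474% lower. At an unadjusted p under 0.05 by edgeR, 12 of the 35 were lower, beside 183 of all 14773 genes tested. The log2 change was below 0 in 35 of 35, with a median of -0.79. In 15 of the 35 the groups did not overlap, against 3.23% of all genes. With ERCC scaling and without APX2009 replicate 1, the 35 genes had a median log2 change of -1.43 and all genes tested of -0.48, and 459 genes were higher. Relative to that median the 35 genes were at -0.95.

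**Figure D2:**
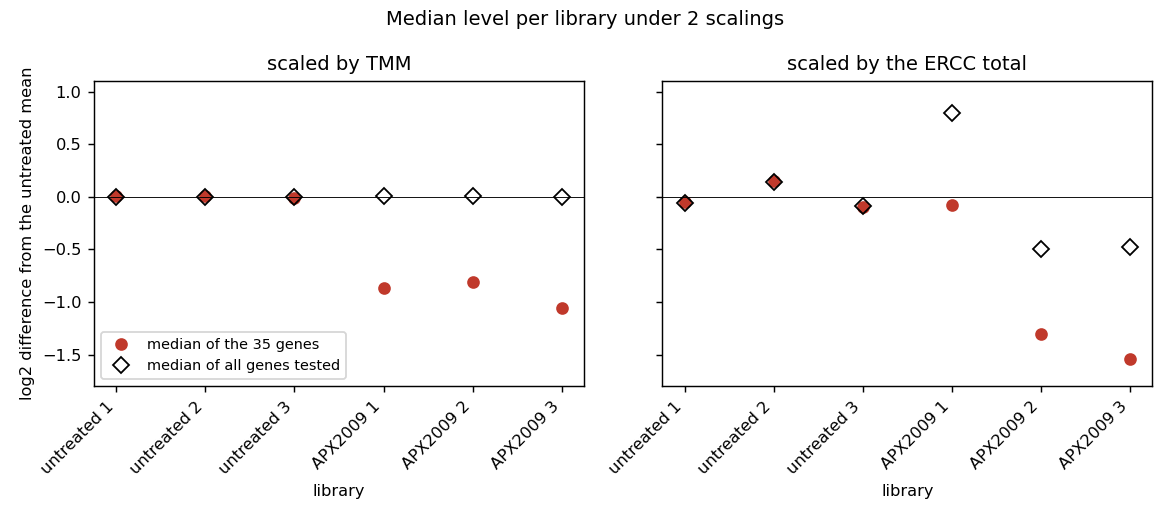
Median log2 difference from the untreated mean in each library, for the 35 genes (filled circles) and all genes tested (open diamonds), with libraries scaled by TMM on the left and by the ERCC total on the right. With TMM the 35 genes lie between -1.06 and -0.81 in treated libraries, and with ERCC scaling at -0.08 in APX2009 replicate 1 and at -1.31 and -1.54 in the other two.

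The DNA in front of the 35 genes was also compared with that of other genes. The 35 were chosen by their mitotic role, so the motif shares describe the list and not the response to APX2009. RefSeq promoter windows (GRCh38.p14, 250 bases before to 50 after the start) were matched by symbol for 30 of the 35, and 6 of these genes had 2 windows. TPX2, UBE2C, FAM83D, RACGAP1 and NCAPH2 were not matched. Each window was searched on both strands for the cell cycle homology region (TTTGAA or TTCGAA), the element bound by DREAM and MuvB complexes, and for CCAAT, the box bound by NF-Y. The cell cycle homology region stood in a window of 24 of the 30 genes (80%), against 19.5% of the 27305 genes in the table and 15.2% of those among the genes tested. CCAAT was present in 22 of the 30 (73.3%), against 39.7% of all genes in the table and 42.8% of the tested ones. Both motifs were in the same window in 18 (60%), against 7.85% and 6.45%. Counted by window, so that each window rather than each gene weighs alike, both motifs were in 18 of 36 member windows and in 6.38% of all 35116. At least 2 CCAAT boxes were in a window of 16 of the 30, against 12.9% of all genes in the table and 16.1% of the tested ones. An E2F site (TTCGCGC or TTGGCGC or TTCCCGC) was found in 6 of the 30 (20%), against 13.1% of all genes in the table and 21.5% of the tested ones, and the GC-rich SP1 box (GGGCGG) in 24 (80%), against 48.3% and 76.8%.

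The stretches below, from 120 bases before to 30 after the start, show how the 2 elements lie in genes that fell by different amounts. Capitals mark both motifs on either strand, so that ATTGG is CCAAT and TTCAAA is TTTGAA read from the other strand. PRC1, ESPL1 and DEPDC1 each carry a CCAAT box with a cell cycle homology region downstream of it, beginning at positions -53 and -20, -48 and -31, and -52 and -27 from the start. In HMMR and ANLN 2 copies of the element stand side by side, and in MKI67 a copy shares its last base with a CCAAT box. NCAPG has the element alone, in KIFC1 it lies behind the start, and the stretches of UBE2S and TACC3 hold neither motif. UBE2S has a CCAAT box further upstream, at -191. The only TACC3 window ends at 1720680 on chromosome 4, before the gene's GENCODE start at 1721490. The DNA directly in front of that GENCODE start was not searched.
PRC1, chr15:90994506-90994655, minus strand: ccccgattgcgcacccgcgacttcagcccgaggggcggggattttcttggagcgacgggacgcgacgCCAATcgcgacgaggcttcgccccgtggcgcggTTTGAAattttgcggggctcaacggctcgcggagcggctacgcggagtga
ESPL1, chr12:53268179-53268328, plus strand: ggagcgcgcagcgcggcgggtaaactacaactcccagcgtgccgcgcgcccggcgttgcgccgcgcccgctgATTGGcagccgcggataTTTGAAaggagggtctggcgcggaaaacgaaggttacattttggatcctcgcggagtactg
DEPDC1, chr1:68497053-68497202, minus strand: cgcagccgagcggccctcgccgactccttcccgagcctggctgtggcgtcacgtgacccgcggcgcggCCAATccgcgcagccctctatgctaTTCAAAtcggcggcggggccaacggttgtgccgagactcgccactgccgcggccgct
HMMR, chr5:163460512-163460661, plus strand: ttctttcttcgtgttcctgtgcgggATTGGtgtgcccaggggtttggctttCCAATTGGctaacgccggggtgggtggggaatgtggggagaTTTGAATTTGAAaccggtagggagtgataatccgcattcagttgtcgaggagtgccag
MKI67, chr10:128126394-128126543, minus strand: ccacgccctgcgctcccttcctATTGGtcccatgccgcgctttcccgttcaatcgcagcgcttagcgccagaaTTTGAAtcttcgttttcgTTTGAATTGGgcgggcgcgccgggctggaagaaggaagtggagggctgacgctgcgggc
KIFC1, chr6:33391703-33391852, plus strand: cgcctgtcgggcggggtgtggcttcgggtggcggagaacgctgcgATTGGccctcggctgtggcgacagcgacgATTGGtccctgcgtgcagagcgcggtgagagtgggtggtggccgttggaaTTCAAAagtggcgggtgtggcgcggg
ANLN, chr7:36389742-36389891, plus strand: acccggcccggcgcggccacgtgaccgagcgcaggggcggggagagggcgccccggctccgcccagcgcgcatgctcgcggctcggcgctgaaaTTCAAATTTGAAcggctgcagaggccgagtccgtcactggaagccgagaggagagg
NCAPG, chr4:17810859-17811008, plus strand: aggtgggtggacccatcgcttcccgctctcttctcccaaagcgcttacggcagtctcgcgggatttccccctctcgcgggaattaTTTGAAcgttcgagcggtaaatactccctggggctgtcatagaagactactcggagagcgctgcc
UBE2S, chr19:55407759-55407908, minus strand: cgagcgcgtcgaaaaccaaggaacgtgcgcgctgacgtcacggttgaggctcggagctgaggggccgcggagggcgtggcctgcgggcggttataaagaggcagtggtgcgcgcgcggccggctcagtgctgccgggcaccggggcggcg
TACC3, chr4:1720511-1720660, plus strand: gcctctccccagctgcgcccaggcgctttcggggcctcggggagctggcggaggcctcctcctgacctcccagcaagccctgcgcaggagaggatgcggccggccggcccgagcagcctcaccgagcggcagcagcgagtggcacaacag
The whole window of TOP2A is shown because its 4 inverted CCAAT boxes and 2 cell cycle homology regions reach further upstream, beginning at positions -244, -160, -93 and -53 and at -194 and -151.
TOP2A, chr17:40417847-40418146, minus strand: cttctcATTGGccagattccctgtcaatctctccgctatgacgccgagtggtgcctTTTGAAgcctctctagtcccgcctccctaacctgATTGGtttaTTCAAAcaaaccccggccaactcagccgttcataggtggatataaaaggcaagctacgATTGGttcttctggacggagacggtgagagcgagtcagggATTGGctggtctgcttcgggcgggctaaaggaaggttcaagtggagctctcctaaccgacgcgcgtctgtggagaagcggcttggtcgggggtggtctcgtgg

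Members with and without the element had overlapping changes. The 24 genes with a cell cycle homology region had a median log2 change of -0.96, with NCAPG at -1.45 and NCAPG2 at -0.21 as the extremes. In the 6 genes without it in a searched window (CKAP2, TACC3, NCAPH, NDE1, PTTG1 and UBE2S) the median was -0.80. Their changes ran from -0.84 for TACC3 to -0.36 for NDE1. The TACC3 window ended before the gene's GENCODE start. The only CKAP2 window began at 52455738 on chromosome 13, behind the gene's GENCODE start at 52455429. In both genes the DNA directly in front of the GENCODE start was not searched. A match to these letters is a description of the window and does not show that a factor binds there.

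Gene positions below are whole genes in GRCh38, from GENCODE 29. Spindle and spindle pole genes were the largest group, and all 14 fell, with a median 2.08-fold decrease. TPX2, which activates the kinase Aurora A and nucleates microtubules near chromosomes (ENSG00000088325, chromosome 20, 31739271 to 31801805), was at 159.6, 170.3 and 164 CPM in untreated and 62.2, 70.6 and 58.9 CPM in treated libraries. The treated values clustered at well under the untreated ones, and the mean went from 164 ± 5.41 to 63.9 ± 6.01 CPM (n = 3, SD), a log2 difference of -1.36 ± 0.08 by edgeR (SE; adjusted p = 1.37e-06), the smallest p of the 35. KIFC1, a motor that moves towards microtubule minus ends and holds extra centrosomes together (ENSG00000237649, chromosome 6, 33391536 to 33409924), was at 45.9, 45.4 and 49.1 CPM in untreated and 16.1, 20.6 and 15.6 CPM in treated libraries. It was the spindle gene with the largest fall, a log2 difference of -1.43 ± 0.10 by edgeR (SE; adjusted p = 7.56e-06), and the 2 groups were far apart.

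**Figure D3:**
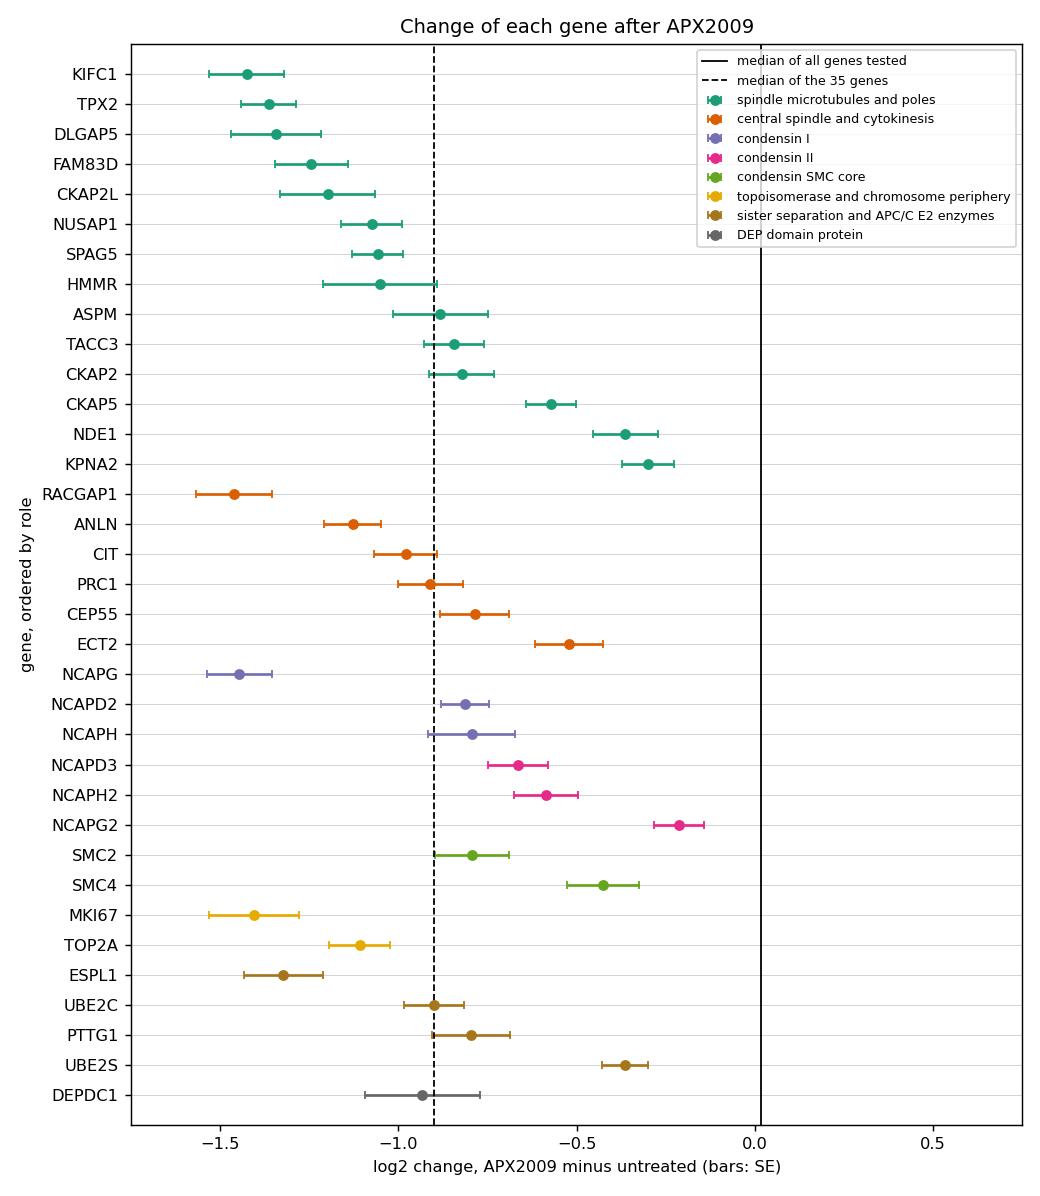
Log2 change (APX2009 minus untreated) of each gene as a point with its SE as a bar, coloured by role, with the median of all genes tested as a solid line and the median of the 35 genes as a dashed line. All 35 points lie to the left of the solid line, from -1.46 for RACGAP1 to -0.21 for NCAPG2.

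DLGAP5, which stabilises the microtubule fibres that reach kinetochores, had 21.1, 19.5 and 20.1 CPM in untreated and 7.98, 9.33 and 6.51 CPM in treated libraries, a log2 difference of -1.34 ± 0.13 by edgeR (SE; adjusted p = 3.56e-05). FAM83D, which brings the kinase CK1 alpha to the spindle, had 69.6, 58.6 and 61.8 against 23.8, 30.8 and 25.7 CPM, a log2 difference of -1.24 ± 0.10 by edgeR (SE; adjusted p = 1.46e-05). Both fell by more than the median of the 35, and the lowest treated value came from replicate 3 in DLGAP5 and from replicate 1 in FAM83D. CKAP2L, a spindle protein of neural progenitors, and NUSAP1, which bundles microtubules, changed by -1.20 ± 0.13 and -1.07 ± 0.08 on the log2 scale. SPAG5 (astrin), which guards the attachment of microtubules to kinetochores, had 61.3, 61.7 and 60.4 against 27.3, 31.6 and 29.2 CPM and fell by 2.08-fold with the narrow SE of 0.0705 on the log2 scale.

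HMMR, a spindle assembly factor first known as a hyaluronan receptor, had 20.4, 18.7 and 20.5 CPM in untreated and 12.3, 8.93 and 7.33 CPM in treated libraries. The treated libraries were spread widely, with replicate 1 the highest and replicate 3 the lowest, and the log2 change was -1.05 ± 0.16 (SE, adjusted p = 7.26e-04 by edgeR). ASPM, which focuses spindle poles and is mutated in primary microcephaly, had 25.2, 32.9 and 30.7 against 17.2, 17.9 and 12.98 CPM and a log2 change of -0.88 ± 0.13. CKAP2, which promotes microtubule growth, changed by -0.82 ± 0.09.

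TACC3 and CKAP5 work as partners: TACC3 carries the microtubule polymerase CKAP5 (ch-TOG) to the spindle and with clathrin links its fibres. TACC3 had 62.8, 62.9 and 60.4 against 33.3, 39.1 and 31.2 CPM, 1.80-fold lower, and CKAP5 had 192, 219.6 and 213 against 135, 140.0 and 145 CPM, 1.49-fold lower. The log2 changes were -0.84 ± 0.08 and -0.57 ± 0.07, and the difference between the genes was not tested. NDE1, a regulator of the motor dynein, had 55.5, 56.3 and 50.99 against 36.9, 42.6 and 47.3 CPM, so that its treated and untreated values came close without overlapping, a log2 difference of -0.36 ± 0.09 by edgeR (SE; adjusted p = 0.0116). KPNA2, the importin that holds TPX2 inactive until Ran releases it, had 103, 103 and 101 CPM in untreated and 77.4, 92.001 and 80.2 CPM in treated libraries. It kept 81.3% of its untreated level while TPX2 kept 38.9%, and its log2 change was -0.30 ± 0.07 (SE, adjusted p = 0.0104 by edgeR).

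Among the 6 genes of the central spindle and cytokinesis, the median decrease was 1.93-fold. RACGAP1, a subunit of the centralspindlin complex (ENSG00000161800, chromosome 12, 49976923 to 50033136), fell most of the 35. It had 56.4, 53.02 and 57.9 CPM in untreated and 19.5, 23.9 and 17.3 CPM in treated libraries, a change from 55.8 ± 2.497 to 20.3 ± 3.35 CPM (n = 3, SD) and a log2 difference of -1.46 ± 0.11 by edgeR (SE; adjusted p = 7.01e-06). Its binding partner ECT2, which activates RhoA at the cell equator, had 59.7, 58.3 and 62.9 against 46.1, 44.4 and 35.3 CPM. ECT2 fell by 1.43-fold against 2.75-fold for RACGAP1, with log2 changes of -0.52 ± 0.09 and -1.46 ± 0.11; this difference between partners was not tested.

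ANLN, the anillin scaffold of the contractile ring (ENSG00000011426, chromosome 7, 36389806 to 36453791), had 105, 95.1 and 97.9 CPM in untreated and 43.03, 50.7 and 42.4 CPM in treated libraries, a log2 difference of -1.13 ± 0.08 by edgeR (SE; adjusted p = 6.59e-06). PRC1, which bundles the antiparallel microtubules of the midzone, had 55.9, 56.8 and 57.04 against 32.4, 32.3 and 25.5 CPM, a log2 difference of -0.91 ± 0.09 by edgeR (SE; adjusted p = 5.25e-05). CIT, the citron kinase of the midbody, changed by -0.98 ± 0.09 on the log2 scale, and CEP55, which recruits the ESCRT machinery for the final cut between daughter cells, by -0.79 ± 0.10. In these 4 genes the treated libraries lay between 45.7% and 57.9% of the untreated level on average.

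Condensin exists in 2 forms that share SMC2 and SMC4: condensin I (NCAPG, NCAPD2, NCAPH) reaches chromosomes after the nuclear envelope opens, and condensin II (NCAPG2, NCAPD3, NCAPH2) is in the nucleus throughout. All 8 genes fell. The 3 subunits of condensin I had log2 changes of -1.45 ± 0.09, -0.81 ± 0.07 and -0.79 ± 0.12, and the 3 of condensin II -0.21 ± 0.07, -0.66 ± 0.09 and -0.59 ± 0.09, so each subunit of condensin I had a larger fall than each subunit of condensin II; differences between single subunits were not tested. NCAPG (ENSG00000109805, chromosome 4, 17810902 to 17844862) was at 19.4, 20.3 and 20.02 CPM in untreated and 7.04, 7.60 and 7.28 CPM in treated libraries, 2.72-fold lower and with treated values close together. NCAPD2 had 143, 152 and 149.5 against 81.1, 90.6 and 81.2 CPM and NCAPH 20.3, 17.99 and 21.1 against 10.2, 13.4 and 10.6 CPM, again with no overlap. NCAPG2, the counterpart of NCAPG (ENSG00000146918, chromosome 7, 158631311 to 158704829), was at 38.9, 38.9 and 35.2 CPM in untreated and 33.3, 32.8 and 31.4 CPM in treated libraries, 1.16-fold lower.

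As a sum of levels per length (CPM per kb of exon), the own subunits of condensin I went from 32.9 ± 0.696 to 17.97 ± 1.43 and those of condensin II from 26.04 ± 0.902 to 18.3 ± 1.56 (SD, n = 3). The ratio of these sums of condensin I over II was 1.22, 1.24 and 1.34 in untreated and 1.02, 0.991 and 0.939 in treated libraries, and the groups did not overlap; no test was made of a score over these genes. NCAPG2 had the change nearest to the threshold (edgeR adjusted p = 0.0399). It was not called under 11 of 19 alternatives, DESeq2 (adjusted p = 0.0705) and the removal of any untreated library or of APX2009 replicate 2 or 3 among them (edgeR adjusted p from 0.0549 to 0.166). The shared subunits had 29.2, 30.9 and 32.9 against 20.7, 16.2 and 16.6 CPM for SMC2 and 82.5, 81.01 and 78.3 against 69.4, 59.96 and 50.4 CPM for SMC4. Their log2 changes were -0.79 ± 0.10 and -0.43 ± 0.10, and in SMC4 the treated libraries ran from 50.4 to 69.4 CPM, close below the lowest untreated value of 78.3 CPM. Exons of NCAPG share 33.1% of their length with LCORL on the opposite strand, and those of SMC4 18.5% with TRIM59; with the strand setting unknown their reads cannot be told apart. LCORL and TRIM59 were at 6.19 to 8.84 and 7.47 to 10.7 CPM over all libraries and did not pass the test (edgeR adjusted p = 0.239 and 0.675).

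MKI67, which codes for Ki-67, the coat protein of mitotic chromosomes that pathologists stain to count dividing cells (ENSG00000148773, chromosome 10, 128096659 to 128126385), had 146, 205 and 192 CPM in untreated and 63.5, 77.3 and 64.3 CPM in treated libraries. Untreated replicate 1 was low for its group yet still far above each treated library, and the change was -1.40 ± 0.13 on the log2 scale (SE, adjusted p = 2.59e-05 by edgeR). TOP2A, the topoisomerase that untangles sister chromatids and the target of anthracyclines and etoposide (ENSG00000131747, chromosome 17, 40388516 to 40417950), had 153, 158 and 153 CPM in untreated and 73.8, 79.1 and 62.03 CPM in treated libraries. The untreated values lay close together, and the mean went from 155 ± 2.69 to 71.6 ± 8.74 CPM (n = 3, SD), a log2 difference of -1.11 ± 0.09 by edgeR (SE; adjusted p = 1.08e-05).

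Separase and securin are the protease that splits sister chromatids and its inhibitor. ESPL1, which codes for separase (ENSG00000135476, chromosome 12, 53268299 to 53293643), had 28.4, 26.03 and 28.03 CPM in untreated and 9.18, 12.1 and 11.7 CPM in treated libraries, a log2 difference of -1.32 ± 0.11 by edgeR (SE; adjusted p = 1.62e-05). PTTG1, which codes for securin, had 15.2, 18.9 and 16.8 against 9.89, 10.3 and 9.15 CPM, 1.74-fold lower, a log2 difference of -0.80 ± 0.11 by edgeR (SE; adjusted p = 3.99e-04). Of the ubiquitin-conjugating enzymes of the APC/C, UBE2C, which starts ubiquitin chains (ENSG00000175063, chromosome 20, 45812576 to 45816957), had 76.8, 69.2 and 70.2 against 38.3, 42.9 and 34.7 CPM, and UBE2S, which extends them, had 99.6, 107 and 99.7 against 77.4, 83.4 and 76.9 CPM. Their log2 changes were -0.90 ± 0.08 and -0.37 ± 0.06 (edgeR adjusted p = 3.41e-05 and 0.00169), and their difference was not tested. DEPDC1, a DEP domain protein needed for mitotic progression, had 31.6, 28.8 and 28.2 against 19.1, 16.1 and 10.9 CPM, the widest spread among treated libraries of the 35 (coefficient of variation 26.9%), and a log2 difference of -0.93 ± 0.16 by edgeR (SE; adjusted p = 0.00154).

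Levels can be compared between genes per length. In CPM per kb of exon, untreated cells had the highest levels for UBE2C (56.03), TPX2 (45.6), UBE2S (36.6) and KPNA2 (32.6), and the lowest for CIT (2.16) and ASPM (2.72). In treated cells TPX2 was at 17.7, below UBE2C, UBE2S and KPNA2 at 30.03, 28.4 and 26.5 CPM per kb. UBE2C spanned 26.97 to 33.4 and UBE2S 27.6 to 29.9 CPM per kb over treated libraries, so these neighbours did not differ beyond their spread. The exon length is that of all annotated transcripts joined, so a level is understated where long isoforms are not used.

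Several of these proteins have close relatives that also work outside mitosis. Of 22 tested relatives, 5 fell and 7 rose, where 17.4% of all genes fell and 17.2% rose. TOP2B, the topoisomerase II that is also present in non-dividing cells, had 52.3, 58.8 and 60.997 CPM in untreated and 70.03, 69.8 and 66.6 CPM in treated libraries. Its log2 difference was 0.26 ± 0.07 by edgeR (SE, adjusted p = 0.0163). TOP2A and TOP2B thus moved in opposite directions relative to all genes, and per kb of exon TOP2A went from 24.0 to 11.1 and TOP2B from 9.49 to 11.4 CPM. NDEL1, the relative of NDE1, rose 1.32-fold, TACC1 and TACC2, the relatives of TACC3, rose 1.21-fold and 1.16-fold, and the importin KPNA1 rose 1.33-fold (edgeR adjusted p = 0.00116, 0.012, 0.0482 and 7.72e-04). These 5 rises are relative to the bulk of genes. With ERCC scaling the log2 changes were 0.34 for TOP2B, 0.50 for NDEL1, 0.38 and 0.27 for TACC1 and TACC2 and 0.51 for KPNA1, none past the test (edgeR adjusted p = 0.9998 for each). With ERCC scaling and without APX2009 replicate 1 they were -0.24, -0.12, -0.27, -0.26 and -0.11, again none past the test (edgeR adjusted p from 0.0631 to 0.454). The sum over 6 importin alpha genes was 85.9 CPM per kb in untreated and 84.7 in treated cells. DEPDC1B, the relative of DEPDC1, fell 2.14-fold, a log2 difference of -1.10 ± 0.13 by edgeR (SE; adjusted p = 1.60e-04). SMC1A of cohesin fell 1.39-fold, while SMC3, SMC5 and SMC6 did not pass the test (log2 changes of -0.11, 0.23 and -0.27). The other 3 relatives that fell were of the family of FAM83D: FAM83B, FAM83E and FAM83H had log2 changes of -0.36 ± 0.09, -0.70 ± 0.14 and -0.33 ± 0.08 (SE; edgeR adjusted p = 0.012, 0.0036 and 0.00883), and the sum over 5 genes of that family went from 159.7 to 117.02 CPM per kb. The other 2 that rose were UBE2D1 and UBE2D3, ubiquitin-conjugating enzymes, with log2 changes of 0.58 ± 0.07 and 0.39 ± 0.06. With ERCC scaling these were 0.67 and 0.46, and with it and without APX2009 replicate 1 they were 0.05 and -0.10, none past the test.

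**Figure D4:**
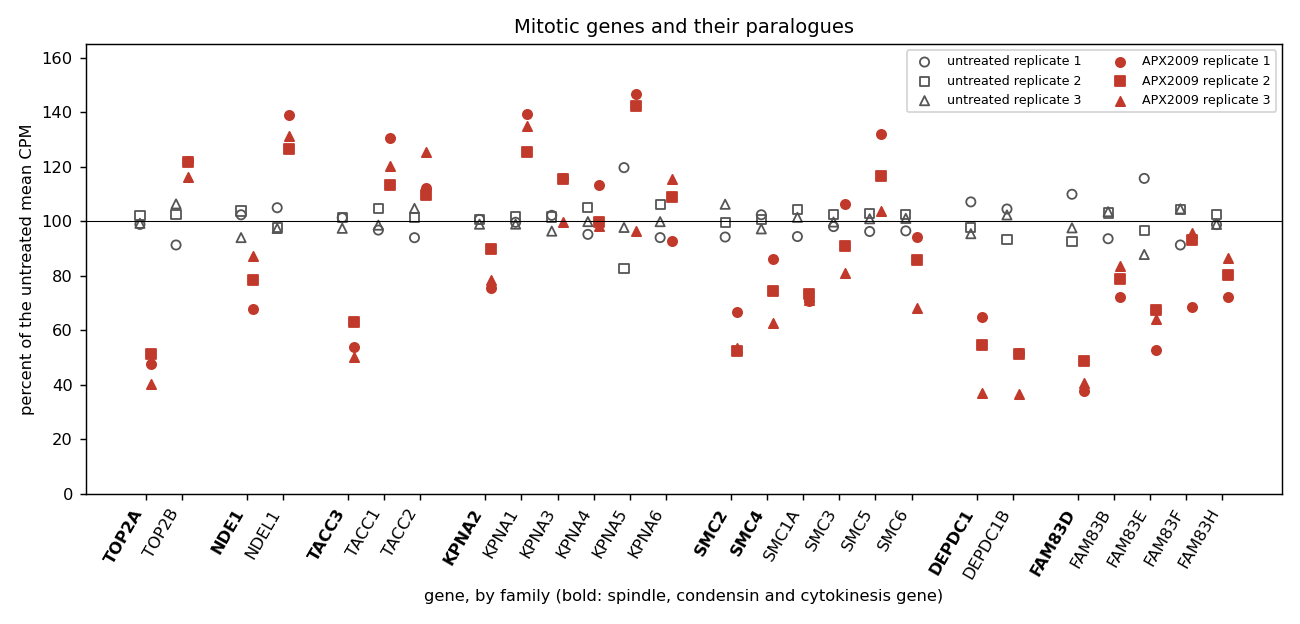
Level in each library as a percent of the untreated mean for 7 gene families, with the spindle, condensin and cytokinesis genes in bold, untreated libraries as open grey and treated libraries as filled red symbols. TOP2A, NDE1, TACC3 and KPNA2 lie below 100% and TOP2B, NDEL1, TACC1, TACC2 and KPNA1 above it in all 3 treated libraries under TMM scaling; with ERCC scaling and without APX2009 replicate 1 the changes of those last 5 were below 0, none past the test, while with ERCC scaling of all 6 libraries they stayed above 0.

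The protein complexes that act beside the 35 genes were measured through 8 further lists, whose counts are read against the 17.4% of all tested genes that fell and the 17.2% that rose. In the list of cohesin, the ring that holds sister chromatids together, 4 of 16 fell and 0 rose, with a median log2 change of -0.07. The 4 that fell were the cohesion establishment factors CDCA5 (sororin, -0.85) and ESCO2 (-1.41), the ring subunit SMC1A (-0.48) and the centromere protector SGO2 (-0.83), as log2 changes, while RAD21 had -0.06, STAG2 -0.12 and NIPBL -0.01 and did not pass. Of the APC/C subunits, coactivators and inhibitor, 3 of 17 fell and 1 rose, with a median log2 change of -0.16, a share near that of all genes lower (17.4%). CDC20, the coactivator of the mitotic APC/C, had 35.5, 35.5 and 37.6 against 18.7, 23.2 and 19.97 CPM, a log2 difference of -0.81 ± 0.09 by edgeR (SE; adjusted p = 1.04e-04). Of the core subunits ANAPC7 and ANAPC11 had smaller log2 changes of -0.27 and -0.25, CDC26 rose by 0.30 (0.37 with ERCC scaling and -0.19 with it and without APX2009 replicate 1, neither past the test), and the other 13 did not pass.

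Microtubule nucleation genes fell in part, beside 17.4% of all genes lower and 17.2% higher. In the list of augmin and the gamma-tubulin complex 7 of 19 fell and 0 rose, with a median log2 change of -0.18, and TUBGCP3, HAUS2, MZT2B and MZT2A had log2 changes of -0.56, -0.58, -0.39 and -0.42. Of the other microtubule-associated and centrosome proteins 10 of 20 fell and 2 rose, with a median log2 change of -0.30. The microtubule destabiliser STMN1, GTSE1 and KNSTRN had log2 changes of -0.93, -1.01 and -0.67. MAPRE3, an end-binding protein, rose 2.56-fold, a log2 difference of 1.35 ± 0.08 by edgeR (SE, adjusted p = 1.20e-06). With ERCC scaling MAPRE3 was at 1.45 and did not pass the test (edgeR adjusted p = 0.27). With ERCC scaling and without APX2009 replicate 1 it was at 0.81 and passed (edgeR adjusted p = 5.62e-09). Of 10 tubulins 4 fell and 2 rose: TUBA1B, TUBB4B, TUBB and TUBA1C had log2 changes of -0.72, -0.38, -0.43 and -0.28, and TUBB3 and TUBA4A of 0.64 and 0.33. With ERCC scaling TUBB3 and TUBA4A were at 0.75 and 0.32, and with it and without APX2009 replicate 1 at 0.07 and -0.04, none past the test.

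In the list of the Ran cycle and importins 5 of 16 fell and 1 rose, with a median log2 change of -0.04, where 17.4% of all genes fell and 17.2% rose. RANGAP1, which makes Ran hydrolyse GTP, CSE1L, which exports importin alpha, and RANBP1 had log2 changes of -0.56, -0.37 and -0.23. Of the contractile ring, septin and ESCRT genes, 6 of 29 fell and 4 rose, with a median log2 change of -0.06, beside 17.4% and 17.2% of all genes. The myosin light chain gene MYL12A and SEPTIN11 had log2 changes of -0.46 and -0.53, and the ESCRT genes TSG101 and CHMP1B rose by 0.54 and 0.45 (0.60 and 0.53 with ERCC scaling, 0.08 and -0.04 with it and without APX2009 replicate 1, none past the test). Among 10 transcription factor genes of the G2 and M phases 4 fell and none rose: MYBL2, which codes for B-MYB, had 53.6, 51.3 and 52.1 against 23.3, 28.5 and 27.8 CPM and FOXM1 65.05, 58.04 and 58.4 against 29.2, 34.1 and 32.4 CPM, with log2 changes of -0.98 ± 0.08 and -0.92 ± 0.08 (edgeR adjusted p = 1.79e-05 and 1.92e-05). LIN9 and TFDP1 had log2 changes of -0.68 and -0.28, and the CCAAT-binding NFYA, NFYB and NFYC did not pass (log2 changes of 0.14, 0.12 and -0.17). Nor did LIN37, LIN52 and LIN54 (log2 changes of 0.28, 0.15 and -0.09).

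**Figure D5:**
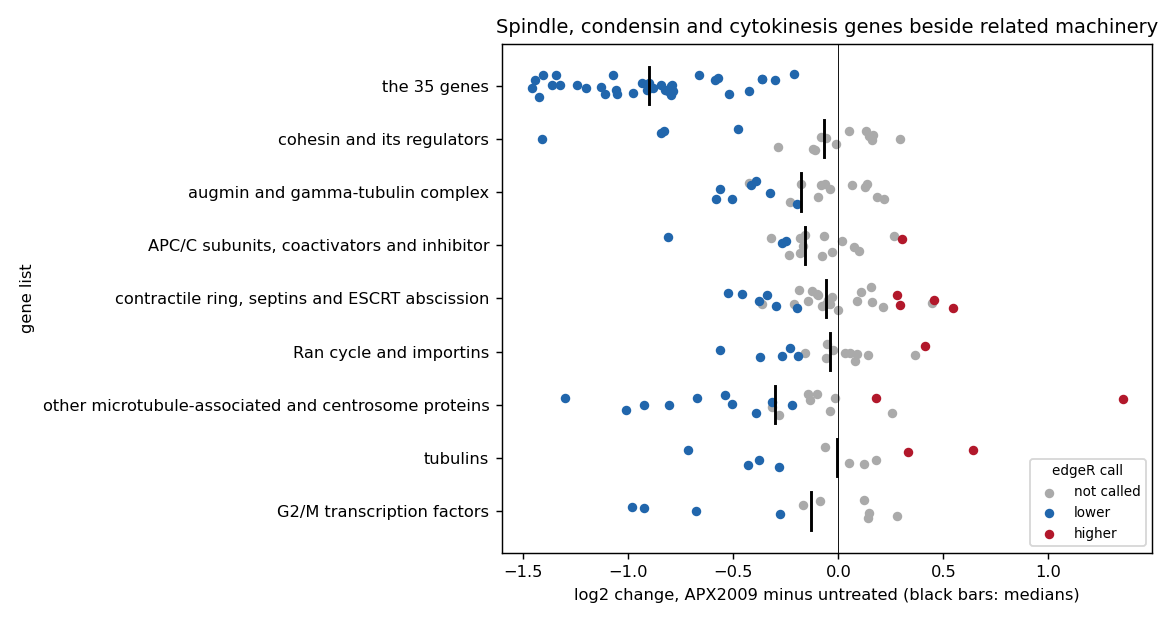
Log2 change (APX2009 minus untreated) of each tested gene in the 35 spindle, condensin and cytokinesis genes and in 8 related lists, coloured by the edgeR call, with black bars at the medians. The median of the 35 genes is -0.90, and the medians of the 8 lists lie between -0.30 and -0.01.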

How the data were processed

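Per the submitters' processing notes, Trimmomatic 0.36, STAR 2.5.2b, featureCounts and Subread 1.5.2 were used on GRCh38; their order, the annotation and the strand setting were not given in the sources used here. The deposited values are raw counts per Ensembl gene and for 92 ERCC spike-ins, with no normalization by the authors. Polyadenylated RNA was sequenced, per the labels' protocols. GENCODE 29 named 57447 of 58051 genes; the others held 0.0348% of gene counts.

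ERCC rows were kept out of library sizes. Genes were filtered with filterByExpr, scaled by TMM and tested with the quasi-likelihood test of edgeR 4.0.16 (R 4.3.3), on treatment alone, 3 libraries against 3, with Benjamini-Hochberg adjustment over 14773 genes; a gene changed at an adjusted p under 0.05. SE was derived from the F statistic. The fit was tested on simulated data. Alternatives used DESeq2 1.42.0, limma 3.58.1, other scalings and filters, and each library left out; ERCC scaling without APX2009 replicate 1 was added after seeing the data. All 35 members are named, with up to 4 genes of each related list by smallest p (any of a list under 12 genes), and marker genes above 1 CPM; any other gene, and the promoters shown, were chosen after their values were seen. Members and lists were chosen with earlier results of these data known. Promoter sequences came from RefSeq (GRCh38.p14). Some results may depend on overlapping genes, which touch exons of 15 of the 35.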

Additional observations from a re-analysis of the deposited data

How the results depend on the processing

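The fall of the 35 genes kept its direction for each gene under all 19 alternatives. The adjusted p under 0.01 and the test against a 1.5-fold change reuse the log2 changes of the main fit, so their direction could not differ. Of 665 values 603 stayed past the threshold and 62 did not: 35 of these came from ERCC scaling and 16 from the test against a 1.5-fold change. Over the 17 alternatives without ERCC scaling the median log2 change of the 35 ran from -0.96 to -0.79. Leaving out each library gave 34 to 35 members lower and none higher, 1795 to 2870 genes lower and 1708 to 2839 higher of all tested, against 2576 and 2543. With ERCC scaling 0 members and 7 genes were lower and 129 genes higher; with ERCC scaling and without APX2009 replicate 1, 9230 genes were lower and 459 higher. The test against a 1.5-fold change left 19 members, 255 genes lower and 351 higher, and an adjusted p under 0.01 left 1587 lower and 1470 higher, by construction. With ERCC scaling and without APX2009 replicate 1, 12 genes that had risen turned direction: the log2 changes were -0.19 for CDC26, -0.037 for CHMP1B, -0.25 for CHMP2B, -0.21 for CHMP4C, -0.11 for KPNA1, -0.30 for MAPRE1, -0.040 for TUBA4A, -0.24 for TOP2B, -0.12 for NDEL1, -0.27 for TACC1, -0.26 for TACC2 and -0.10 for UBE2D3. Of these only MAPRE1 passed the test in the turned direction (edgeR adjusted p = 0.0456). With ERCC scaling of all 6 libraries the values of the 12 genes did not turn, and the cause was not tested. Whether the replicate numbers pair the samples was not settled. Deviations of same-numbered libraries from their group means correlated across genes at 0.14, 0.078 and 0.0060. Of the untreated libraries 1 and 3, but not 2, correlated best with their own number. With the replicate block 35 members, 2744 genes lower and 2757 higher were called. Each of the 35 genes had at least 136 counts in each library; the effect of depth on the calls was not tested, and 3 libraries a group limit the precision.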

Other observations

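The promoter motifs of the 35 genes were also counted among the other tested genes, leaving the 35 out. Of 644 such genes with a CCAAT box and a cell cycle homology region in the same window, 161 fell (25%) and 127 rose (19.7%), with a median log2 change of -0.02. Of 10202 matched genes in all, 18.7% fell and 18.1% rose, and of 5139 genes with neither motif 17.7% fell and 17.7% rose.

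The 35 genes lie on 19 chromosomes, with at most 4 on the same chromosome (RACGAP1, CIT, NCAPD2 and ESPL1 on chromosome 12). TPX2, FAM83D and UBE2C are all on chromosome 20, and their log2 changes were -1.36, -1.24 and -0.90. In 7 of the 35 genes APX2009 replicate 1 was the highest and replicate 3 the lowest treated library, and the widest such spreads were in DEPDC1 and HMMR.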
